A study of Mus musculus with 289 samples.

Results

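The 9 genes described here encode the hemidesmosome of epidermal keratinocytes and its extracellular ligand: Col17a1, Itga6, Itgb4, Dst and Plec for the plaque and its transmembrane proteins, Lama3 and Lamb3 for laminin-332, and Itga3 and Itgb1 for the other laminin-332 receptor. They were chosen by gene symbol, and all 9 were present among the 15019 genes of the count table. They were read in single keratinocytes of mouse tail skin, each sequenced as full-length cDNA (Smart-seq2). All mice carried Lrig1-EGFP-ires-CreERT2 together with the reporter Rosa26-fl/STOP/fl-tdTomato on a mixed CBA and C57BL/6 background, and all were at time t0. Hydroxytamoxifen was put once on the tail skin, then PRT4165 or vehicle, and tomato-positive cells were sorted into plates. PRT4165 inhibits Ring1a and Ring1b, the ubiquitin ligases of Polycomb repressive complex 1, and the drugs of this study were dissolved in acetone. Because Cre is driven from the Lrig1 locus, the sorted cells are the labelled progeny of Lrig1-expressing stem cells and not a sample of the whole epidermis. The labels give no age and no number of animals per plate, and the treatment label carries a code, PR9 for vehicle and PR12 for PRT4165, that is not explained. Each of the 4 plates held 1 treatment, with 2 plates (replicate 1 and replicate 2) per treatment, so that a difference between treatments and a difference between plates cannot be told apart in either replicate.

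Hemidesmosomes rivet basal keratinocytes to the basement membrane. Integrin alpha6beta4 (Itga6 and Itgb4) and collagen XVII (Col17a1) span the membrane, plectin (Plec) and the epithelial form of dystonin (Dst, also known as BPAG1 or BP230) tie them to keratin 5 and keratin 14 filaments inside the cell, and laminin-332, whose alpha and beta chains Lama3 and Lamb3 encode, is the ligand outside. Integrin alpha3beta1 (Itga3 and Itgb1) binds the same laminin and is linked to actin. As keratinocytes leave the basement membrane they give up keratin 14 for keratin 10, and hemidesmosomes are not found in the suprabasal layers.

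The upstream sequences of 4 of the 5 members with a matched promoter are shown, so that they can be read side by side. These 4 genes were lower in suprabasal cells, as all 9 members were, and were not selected by it. Each window runs from base -250 to base -61 of a RefSeq transcription start, 5′ to 3′ on the strand of the gene, in GRCm38.p6. Capitals mark a GC box (GGGCGG) or a TATA box (TATAAA), searched on both strands. These names stand for a match of letters, and whether a match is used was not tested. Bases closer to the start than -61 were not searched.
Col17a1: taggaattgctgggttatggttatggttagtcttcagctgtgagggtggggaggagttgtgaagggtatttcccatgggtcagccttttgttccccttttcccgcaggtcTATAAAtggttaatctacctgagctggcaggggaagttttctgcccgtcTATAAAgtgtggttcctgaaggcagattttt
Itga3: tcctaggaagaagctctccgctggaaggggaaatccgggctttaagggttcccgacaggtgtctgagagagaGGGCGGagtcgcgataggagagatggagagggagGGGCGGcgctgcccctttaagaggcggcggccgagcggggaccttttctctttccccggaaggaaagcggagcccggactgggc
Itgb1: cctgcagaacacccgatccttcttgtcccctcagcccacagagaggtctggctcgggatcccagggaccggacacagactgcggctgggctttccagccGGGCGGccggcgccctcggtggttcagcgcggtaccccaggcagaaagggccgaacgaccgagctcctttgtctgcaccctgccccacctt
Lamb3: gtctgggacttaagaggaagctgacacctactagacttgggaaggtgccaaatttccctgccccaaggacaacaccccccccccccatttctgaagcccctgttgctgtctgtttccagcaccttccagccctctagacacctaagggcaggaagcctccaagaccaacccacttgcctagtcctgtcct
The Col17a1 window (chr19:47692103-47692292, minus strand) had 2 TATA boxes, first bases -140 and -91, and a GC content of 47.4%. The Itga3 window (chr11:95076775-95076964, minus strand) had 2 GC boxes, at -178 and -144, and a GC content of 63.7%. The Itgb1 window (chr8:128685404-128685593, plus strand) had 1 GC box, at -151, with 67.4% GC, and the Lamb3 window (chr1:193301744-193301933, plus strand) had none of the motifs at 56.3% GC. Of all 32851 RefSeq windows of the same length, 22.8% held a GC box and 8.73% a TATA box, and the median GC content was 51.6%. The motifs TGANTCA (AP-1, in 5.22% of all windows) and GCCNNNGGC (AP-2, in 9.84%) were searched as well and were in no window of a member. RefSeq promoters were matched for 5 of the 9 members, with 8 windows in all. Among them were 2 windows of Dst, of which the first had 3 GC boxes, at -92, -85 and -73, and the second none of the motifs. Itga3 and Lamb3 each had a second window that is not shown. That of Itga3 had 1 GC box, at -246, with 50.5% GC, and that of Lamb3 had none of the motifs at 59.5% GC.

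In GRCm38 the genes lay on 7 chromosomes. Col17a1 (ENSMUSG00000025064) spanned chr19:47646344-47692094, Itga6 (ENSMUSG00000027111) chr2:71745616-71858416 and Itgb4 (ENSMUSG00000020758) chr11:115974709-116008412. Itga3 (ENSMUSG00000001507) spanned chr11:95044474-95076801 and Itgb1 (ENSMUSG00000025809) chr8:128685654-128733200. Lamb3 (ENSMUSG00000026639) spanned chr1:193207699-193343878, Dst (ENSMUSG00000026131) chr1:33908225-34308661, Plec (ENSMUSG00000022565) chr15:76170974-76232574, and Lama3 (ENSMUSG00000024421) lay on chromosome 18. The table gives 1 value per gene symbol, so the epithelial, neuronal and muscle forms of Dst and the forms of Plec were read together.

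Of 289 cells, 274 were kept, 70 and 55 of vehicle replicates 1 and 2, and 72 and 77 of PRT4165 replicates 1 and 2. The kept cells of a plate summed to between 25761756 and 41592716 estimated counts. The reads carry no molecular identifiers, so every interval and floor covers counting error only. Cells were classed by d, the log2(CPM + 1) of Krt14 minus that of Krt10, where CPM scales the counts of a cell or of a sum of cells to a total of 1000000. Cells with d over 1 were called basal (162 cells), cells with d under -1 suprabasal (85), those between intermediate (18), and 9 cells with under 10 CPM of both genes were left without a class. Each of the 2 class limits had 8 cells within 0.5 of it. Basal cells made up 60.0% and 63.6% of vehicle replicates 1 and 2 and 59.7% and 54.5% of PRT4165 replicates 1 and 2, and suprabasal cells 32.9%, 29.1%, 26.4% and 35.1% in the same order. With 2 plates per treatment an exact two-sided permutation test cannot go below 0.333, which it gave for the basal share, and it gave 1.0 for the suprabasal share.

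The classes went with keratins that the rule did not use. Krt5, the partner of Krt14, was at 369 to 670 CPM in the basal sums of the 4 plates and at 28.7 to 417 CPM in the suprabasal sums, while Krt1, the partner of Krt10, was at 0.112 to 29.2 CPM and at 566 to 3076 CPM. Only 40 of 85 suprabasal cells had a Krt1 count. On vehicle replicate 2 it was 4 of 16, and 1 cell gave 73.2% of the counts. The suprabasal class also held far more of the upper follicle markers: their summed level ran from 4650 to 29258 CPM in basal and from 34118 to 93445 CPM in suprabasal sums, and 1 gene, Cst6, gave 88.0% and 92.6% of it on average over plates. The summed bulge markers went the other way, from 1387 to 3192 CPM in basal and from 294 to 571 CPM in suprabasal sums. Of this, 1 gene, Krt15, which is also in the list of basal markers, gave 82.5% and 51.0% on average over plates. Sebaceous gland markers (892 to 4525 CPM against 283 to 488 CPM) and cycling markers (55.7 to 790 CPM against 0.0741 to 20.4 CPM) were likewise higher in basal sums. Fibroblast markers summed to 7.02 to 160 CPM in basal and to 0.498 to 1.76 CPM in suprabasal sums, with Pdgfra at 0 in the latter. Dcn gave 96.6% of the basal fibroblast sum on average over plates. The part of these other markers in the results was not tested. Suprabasal cells were the deeper libraries, with a median of 570536 counts against 342827 in basal cells.

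In basal cells the collagen XVII gene had the highest mean level of the members for its length. On the scale of CPM per kilobase of the longest coding transcript, the basal level of Col17a1 was 50.5 ± 20.2 (SD, n = 4 plates). Itgb1 at 26.7 ± 7.01 and Itga6 at 25.3 ± 6.06 came next and did not differ beyond their spread, followed by Dst at 16.0 ± 3.997. Itgb4 at 5.13 ± 2.74, Plec at 4.68 ± 1.76, Lamb3 at 4.47 ± 1.87 and Lama3 at 3.41 ± 2.02 formed a lower group whose levels overlapped, and Itga3 was lowest at 1.86 ± 1.20. The ranges over plates overlapped between Col17a1 and Itgb1, between Itga6 and Dst, and between Lama3 and Itga3, neighbours in this order. The order rests on the length taken, which was 23.3 kb for Dst, a gene with 14 coding transcripts, and 10.5 kb for Lama3. Which forms the cells used was not read, and a shorter form would give a higher value on this scale. The level of Itga6, whose protein pairs with the products of both Itgb4 and Itgb1, was above that of Itgb4 and near that of Itgb1, and the level of Itgb1 was above that of Itga3. Cd151, the tetraspanin that accompanies laminin-binding integrins, was at 13.6 ± 1.96.

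All 9 genes were lower in the suprabasal than in the basal sum of every plate, in 9 of 9 cases on 4 of 4 plates, where 27.0% of the 10866 genes tested did so. On this CPM scale the whole transcriptome was shifted, with a median log2 ratio of suprabasal to basal of -0.65 over all genes, so that the direction has to be read against it. Relative to the median of its plate, 4 of the 9 members (Col17a1, Itga6, Lama3 and Plec) were below on all 4 plates, against 11.6% of all genes. The median log2 ratio of the members was -2.43.

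Among the transmembrane proteins, Col17a1 was at 321 and 417 CPM in the basal sums of vehicle replicates 1 and 2 and at 237 and 153 CPM in those of PRT4165 replicates 1 and 2. In the suprabasal sums it was at 12.9, 80.3, 69.4 and 28.8 CPM in this order. The lowest basal plate stood above the highest suprabasal plate, and the means were 282 ± 113 and 47.9 ± 32.2 CPM (SD, n = 4). Itga6, in the same order of plates, was at 93.9, 125, 136 and 80.5 CPM in basal and at 14.3, 19.1, 71.5 and 33.4 CPM in suprabasal sums. Its classes did not overlap either, although 1 cell gave 99.0% of the suprabasal Itga6 counts of vehicle replicate 2 and 92.2% of those of vehicle replicate 1. Itgb4, the integrin subunit whose long cytoplasmic tail binds plectin, was at 55.6, 28.9, 15.2 and 27.7 CPM in basal and at 1.12, 20.9, 0.481 and 12.8 CPM in suprabasal sums. Itgb4 was lower in the suprabasal cells of each plate, but the plates overlapped between the classes.

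Of the plakins, Dst had the highest suprabasal level of all members in CPM. Dst was at 440, 465, 285 and 301 CPM in basal and at 110, 145, 180 and 249 CPM in suprabasal sums, a mean of 373 ± 93.0 against 171 ± 59.6 CPM, and the classes did not overlap. Plec, which also links keratin to other junctions, was at 76.2, 108, 63.0 and 42.6 CPM in basal and at 21.7, 59.8, 27.0 and 13.8 CPM in suprabasal sums. Its plates overlapped between the classes, since suprabasal cells of vehicle replicate 2 stood above the basal cells of PRT4165 replicate 2.

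The laminin-332 genes were less abundant and rested on few cells. Lama3 was at 17.0, 64.6, 39.7 and 22.8 CPM in basal and at 0.561, 12.9, 2.41 and 1.71 CPM in suprabasal sums, with no overlap. Lamb3 was at 31.8, 26.4, 11.4 and 17.4 CPM in basal and at 5.23, 9.58, 6.12 and 15.4 CPM in suprabasal sums, with overlap, with means of 21.7 ± 9.10 and 9.07 ± 4.59 CPM (SD, n = 4).

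The alpha3beta1 subunits had large but uneven differences between the classes. Itga3 was at 6.14, 15.9, 11.4 and 2.66 CPM in basal and at 0.0623, 0.293, 0.138 and 1.60 CPM in suprabasal sums, the first 3 of the latter being 1, 3 and 2 counts from 1 cell each. Itgb1, which pairs with many alpha subunits, was at 76.2, 138, 87.8 and 105 CPM in basal and at 2.30, 92.2, 7.84 and 0.718 CPM in suprabasal sums. The value of 92.2 CPM in vehicle replicate 2 made the classes overlap, and 1 cell gave 94.7% of it. In the plot of class levels, this point is the suprabasal square that reaches the basal range.

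**Figure D1:**
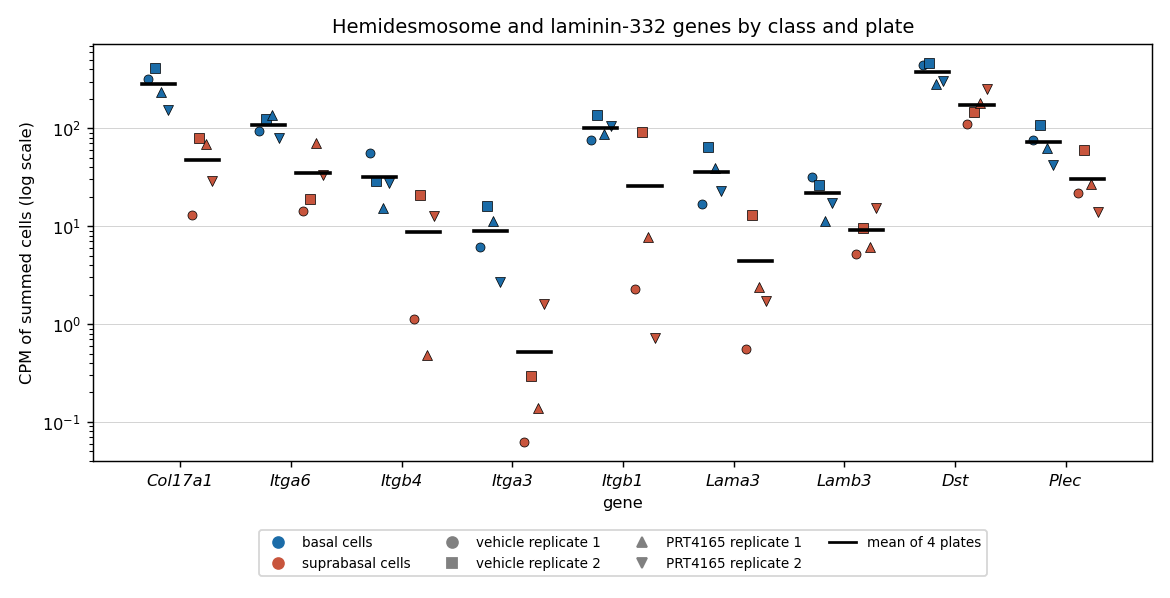
Level of each gene (CPM of the summed cells, log axis) in the basal (blue) and suprabasal (red) cells of the 4 plates, with 1 marker shape per plate and a bar at the mean. For Col17a1, Itga6, Itga3, Lama3 and Dst every suprabasal point lies under every basal point, and for Itgb4, Itgb1, Lamb3 and Plec they overlap.

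For 5 of 9 members every suprabasal sum lay below every basal sum, as it did for 12.6% of all genes. With the sums as the unit and plate as a block, the quasi-likelihood test of edgeR called none of the 9 at an adjusted p under 0.05. It called 45 of 10866 genes, or 0.414%, of which 6, or 0.0552%, were lower in suprabasal cells, and 104 genes but no member without the block. At an unadjusted p under 0.05 it had 5 of 9 members against 14.0% of all genes, or 7.45% counting those lower in suprabasal cells only. The 5 were Col17a1 (log2 fold change -2.15, SE 0.54, edgeR adjusted p = 0.131), Lama3 (-3.14, SE 0.84), Itgb1 (-3.50, SE 1.17), Itga3 (-4.47, SE 1.66) and Itga6 (-1.29, SE 0.56). Dst (-0.54, SE 0.41), Plec (-0.77, SE 0.52), Lamb3 (-0.67, SE 0.81) and Itgb4 (-2.38, SE 1.29) did not reach it. The median over members was -2.15 and over all genes -0.24. DESeq2 on the same sums called 4 members, Col17a1, Itga3, Itgb1 and Lama3, where it called 14.8% of all genes and 9.06% as lower.

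A sum gives most weight to the deepest cells, so the same contrast was also taken on means over cells, an alternative chosen after seeing the data. The 246 cells with at least 50000 non-mitochondrial counts were first brought to that depth by random thinning, and 28 shallower cells were left out. Of the 162 basal cells 140 stayed, and of the 85 suprabasal cells 82, so the cells left out were mostly basal. The plate means of log2(CPM + 1) over the thinned cells were fitted with limma. On this scale 8 of the 9 genes were called lower in suprabasal cells, all but Lamb3, where 17.4% of 7404 genes were called and 12.5% as lower. The difference was -4.30 (SE 0.50) for Col17a1, with an adjusted p of 1.75e-10 by limma, and -3.41 (SE 0.47) for Itga6 and -3.17 (SE 0.46) for Itgb1. It was -1.83 (SE 0.44) for Dst, -1.81 (SE 0.41) for Itgb4 and -1.75 (SE 0.50) for Plec. Lama3 was at -1.43 (SE 0.38), Itga3 at -0.96 (SE 0.25) and Lamb3 at -0.90 (SE 0.34, limma adjusted p = 0.0564). The median of all genes was -0.28. Without 1 plate at a time 6 or 7 members were called. Lama3 was lost without vehicle replicate 1 and Plec without vehicle replicate 2. Itga3 and Lama3 were lost without PRT4165 replicate 1 and Plec without PRT4165 replicate 2. Of all 7404 genes, 964 and 1015 were called without vehicle replicate 1 or 2, and 677 and 776 without PRT4165 replicate 1 or 2. Those called lower numbered 685, 704, 446 and 508 in this order. These p-values lean on a spread shared over genes, since each gene has 3 residual degrees of freedom and the shared part weighs as 76.8.

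**Figure D2:**
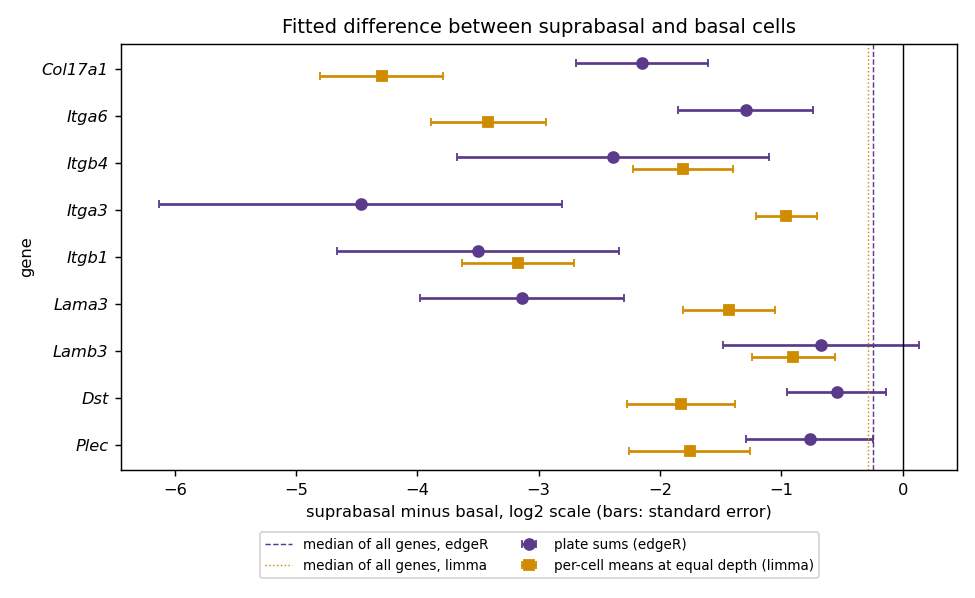
Fitted difference between suprabasal and basal cells for each gene on the log2 scale, from sums over cells (edgeR, circles) and from means over cells at equal depth (limma, squares), with standard errors. Every estimate lies below 0 and below the median of all genes of its fit (dashed and dotted lines), and the error bars of Lamb3, Dst and Plec on the sums reach that median.

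The classes also differed in how many cells had a count. At 50000 counts per cell, 80.7 ± 6.16% of basal cells had a Col17a1 count (SD, n = 4 plates) against 34.7 ± 5.16% of suprabasal cells. The shares were 64.1 ± 3.84% against 15.3 ± 7.02% for Itga6 and 59.2 ± 3.36% against 13.7 ± 9.22% for Itgb1. The share was lower in suprabasal cells on 4 of 4 plates for 9 of 9 members, as for 19.4% of all genes, and the exact sign-flip test over plates gave 0.125, the smallest p that 4 plates allow. Dst was detected in nearly all cells of either class, in 94.5 ± 3.44% of basal and 82.7 ± 5.70% of suprabasal cells, and Plec in 73.9 ± 7.26% and 53.6 ± 17.4%. Itgb4 had a count in 40.8 ± 6.39% and 11.7 ± 9.41%, Lama3 in 30.3 ± 11.9% and 10.3 ± 7.74%, Lamb3 in 24.2 ± 6.34% and 10.1 ± 2.13%, and Itga3 in 18.1 ± 6.56% and 2.52 ± 3.08%. So Dst had a count in most suprabasal cells of every plate and Plec in 63.6% and 72.2% of them on vehicle replicate 1 and PRT4165 replicate 1 but in 43.8% and 34.6% on vehicle replicate 2 and PRT4165 replicate 2, while each integrin subunit and laminin chain had a count in fewer than 16% of them on average. Before thinning, the shares over all cells were 85.8% (exact 95% interval 79.5 to 90.8%) of 162 basal cells and 42.4% (31.7 to 53.6%) of 85 suprabasal cells for Col17a1.

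**Figure D3:**
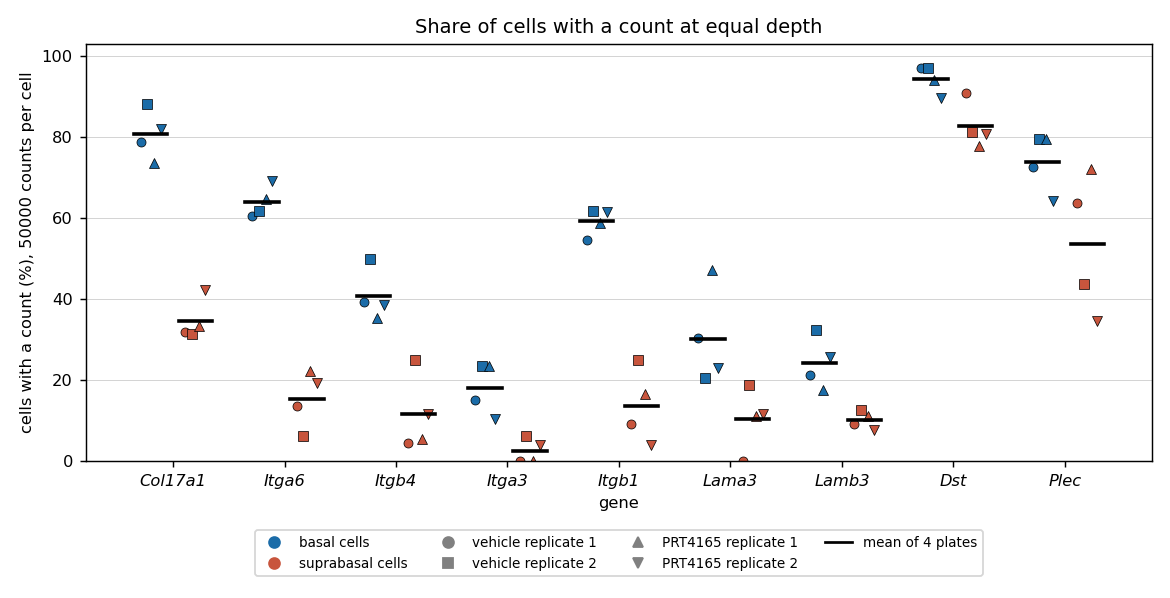
Share of cells with at least 1 count of each gene after thinning to 50000 counts per cell, in the basal (blue) and suprabasal (red) cells of the 4 plates, with a bar at the mean. Suprabasal shares are below basal shares on every plate, and Dst and Plec keep the highest suprabasal shares, 82.7% and 53.6% on average.

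Single basal cells held a median of 5 of the 9 genes at this depth, and suprabasal cells a median of 2, on each of the 4 plates. At least 5 of the genes were found in 83 of 140 basal cells and in 7 of 82 suprabasal cells. By plate this was 51.3 to 67.6% of the basal and 3.85 to 18.8% of the suprabasal cells, with no overlap. Only 3 basal cells and no suprabasal cell had all 9, and 6 suprabasal cells had none.

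**Figure D4:**
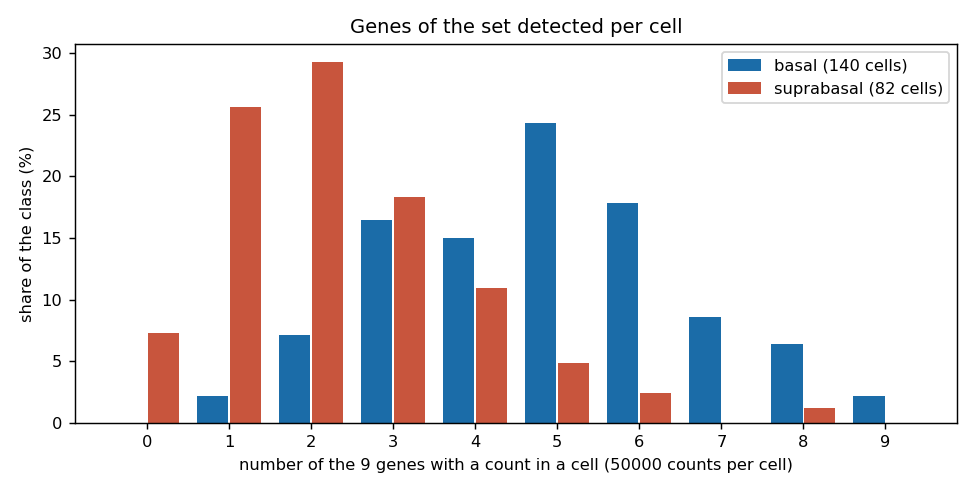
Share of basal (blue, 140 cells) and suprabasal (red, 82 cells) cells by how many of the 9 genes had a count at 50000 counts per cell. Basal cells centre on 5 genes and suprabasal cells on 2, with 59.3% and 8.54% of cells at 5 or more.

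Genes whose proteins form 1 complex were also counted cell by cell at this depth, as a description without a test. Genes detected in more cells are found together more often, and the number expected from the single shares was not worked out. Itga6 and Itgb4, which form the hemidesmosomal integrin, both had a count in 39 of 140 basal cells, while 51 had Itga6 only, 18 Itgb4 only and 32 neither. In suprabasal cells the pair was found in 1 of 82. Itga3 and Itgb1 were found together in 18 of 140 basal cells and in 1 of 82 suprabasal cells. Lama3 and Lamb3 both had a count in 18 of 140 basal cells, while 24 had Lama3 only, 16 Lamb3 only and 82 neither, and both were found in 2 of 82 suprabasal cells. Not every pair of members was counted. Of those counted, Dst and Plec were most often found together, in 98 of 140 basal and 40 of 82 suprabasal cells. Each alone had a count in 94.3% and 73.6% of these basal cells.

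Along the gradient from Krt14 to Krt10, the cells of all plates were summed, so the deepest cells weigh most. In these sums the widest step down on the log2 scale lay between the intermediate cells and those with d from -4 to -1 for 8 of the 9 members, all but Lama3. For Col17a1 the level of the summed cells was 317 CPM in 89 cells with d over 8, 243 CPM in 73 cells with d from 1 to 8, 197 CPM in the 18 intermediate cells, 52.3 CPM in 29 cells with d from -4 to -1 and 39.1 CPM in 56 cells with d under -4. Its share of cells with a count was lower at each step, at 93.3%, 76.7%, 66.7%, 48.3% and 39.3%. Itga6 was at 111, 112 and 85.4 CPM in the first 3 groups and at 35.0 and 35.2 CPM in the last 2. Itgb1 was at 121, 91.7, 47.0, 7.13 and 24.5 CPM in the 5 groups. Dst was at 391, 341 and 318 CPM, then at 121 and 203 CPM, with a count in at least 94.4% of the cells of every group. Lama3 was already low in the intermediate cells, at 8.74 CPM after 36.0 and 45.0 CPM. Other measures did not place the widest step there for every member. From the second to the fourth group the share of cells with a count was 64.4%, 61.1% and 31.0% for Itga6 but 49.3%, 16.7% and 17.2% for Itgb4. The mean over cells was 79.5, 36.2 and 11.4 CPM for Itgb1 but 440, 204 and 344 CPM for Dst. The Itga3 step ended at 0.0520 CPM, with a count in 3.45% of cells. Of the 18 intermediate cells, 2 and 2 came from the vehicle plates and 6 and 8 from the PRT4165 plates, so the plate and the place on the gradient cannot be told apart there, and these values are a description without a test.

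Over cells of all classes together, the members were positively correlated. Over cells, and averaged over the 4 plates, Spearman's rho of log2(CPM + 1) was above 0 for all 36 pairs of members, with a median of 0.27. Col17a1 and Dst went most closely together (0.53), then Col17a1 and Itga6 (0.45), and Itgb1 had the lowest values, 0.14 with Lama3 and 0.15 with Plec. Within basal cells alone the median was 0.21, and Col17a1 with Dst (0.47) and with Lamb3 (0.47) were highest, while Col17a1 with Itga6 was at 0.31. Within basal cells Itgb1 was near 0 with Plec (-0.06), Lama3 (-0.03), Lamb3 (0.002) and Col17a1 (0.02), and highest with Itga6 (0.26). The cells of a plate share its libraries and differ in depth, and these values carry no test. The mean of the 9 genes went with the mean of the basal markers (0.77) and of the bulge markers (0.53, and 0.42 within basal cells), and against upper follicle (-0.53) and suprabasal markers (-0.47), and had a rho of -0.15 with total counts. The basal and bulge lists share Krt15. Of 2028 other genes with a count in at least 50% of cells, the 5 most like the mean of the members were Krt5 (0.67), the transcription factor gene Nfib (0.61), the ferritin heavy chain gene Fth1 (0.61), Tgfbi, which encodes a secreted integrin-binding matrix protein (0.59), and the calcium-binding protein gene S100a6 (0.58). Each is the mean over 4 plates of the rho over the cells of a plate.

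Other genes of cell adhesion were read from lists in the same fits, to be read beside the 12.5% of all genes that limma called lower. Of 7 hemidesmosome and anchoring filament partners tested, edgeR called 1 lower in suprabasal cells, Krt14. Limma called 4 of 5, again with Krt14 (-4.50) among them. Krt14 defined the classes, so neither of its calls is a result. The others called by limma were Krt5, the partner of Krt14, at -5.29, Trp63, the basal transcription factor, at -3.21, and Cd151 (-1.14, limma adjusted p = 0.0387). Of the other basement membrane genes, edgeR called none of 20, with 11 lower and none higher at an unadjusted p under 0.05. Limma called 6 of 9 lower, such as Agrn (-1.54), which encodes the heparan sulphate proteoglycan agrin, Postn (-2.44), which encodes periostin, and Npnt (-1.35), which encodes nephronectin. For other integrin subunits and receptors, limma called 3 of 12 lower (Bcam at -1.28, the laminin receptor Lutheran; Itga2 at -1.01, a collagen receptor subunit; Cd81 at -1.96, a tetraspanin) and 1 higher. For focal adhesion and integrin adaptors it called 7 of 17 lower and none higher, with Tns3 (tensin 3, -1.81), Fermt1 (kindlin-1, -2.25) and Tln1 (talin-1, -1.58). The plakins and keratin linkers of other junctions went the other way: 5 of 7 were called higher by limma, as 4.82% of all genes were, and none lower, and edgeR called Dsp, the desmosomal plakin, 2.03 higher (adjusted p = 0.0184), where edgeR called 0.359% of all genes higher and DESeq2 5.78%. Ppl and Evpl, the cornified envelope plakins, were 3.16 and 1.44 higher by limma. The list medians on the limma scale were -3.21, -0.95, -0.03, -0.77 and 1.56 in this order, beside -0.28 for all genes. The first of these medians includes Krt14 and Krt5. No member of the lists was called by edgeR in either comparison of treatments.

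The comparison of PRT4165 with vehicle asked whether blocking Polycomb repressive complex 1 moved these genes in unwounded skin, and none of the 9 passed the test. In the sums over all cells of a plate, where fewer cells of a type and less RNA per cell cannot be told apart, Col17a1 was at 121 and 306 CPM on the vehicle plates and at 213 and 102 CPM on the PRT4165 plates. The PRT4165 values lay on either side of the value of vehicle replicate 1. Itga6 was at 44.0 and 87.0 against 96.9 and 63.1 CPM, Dst at 229 and 357 against 245 and 276 CPM, and Itgb1 at 29.0 and 116 against 49.998 and 52.0 CPM. No member had both PRT4165 plates below or both above the vehicle plates, as 16.3% and 15.4% of the genes had, and the highest plate exceeded the lowest by 1.55-fold for Dst and up to 7.26-fold for Lama3. The fitted log2 fold changes ran from -0.71 (Plec, SE 0.62) to 0.35 (Itga6, SE 0.57), 8 below 0 and 1 above, where 50.6% of all genes were below 0. Every edgeR adjusted p of the members was 0.997. No gene of 12791 was called (0.0%), and 630 genes (4.93%) and 0 members had an unadjusted p under 0.05. DESeq2 called 174 genes (1.36%) and limma 3 (0.0405%), none of them members. Between plates of the same replicate number, 7 of 9 members had opposite signs in the 2 replicates: for Col17a1 the log2 ratio was 0.82 in replicate 1 and -1.59 in replicate 2. The share of all genes with opposite signs was not counted.

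The share of cells with a count overlapped between the treatments for all members but Itga6, Dst and Plec. How many of all genes lacked such overlap was not counted, so no effect of treatment is read from it. Itga6 was higher on the PRT4165 plates, with a count in 42.9% and 50.9% of vehicle cells and in 56.9% and 66.2% of PRT4165 cells. At equal depth the Itga6 shares were 40.7% and 42.6% against 52.5% and 51.4%, again without overlap, and the exact permutation test over plates gave its smallest possible p, 0.333. Dst had a count in every vehicle cell and in 95.8% and 96.1% of PRT4165 cells, and at equal depth in 93.2% and 92.6% against 86.9% and 86.1%. The Plec shares were 75.7% and 78.2% against 73.6% and 71.4%, and at equal depth, at 66.1% and 66.7% against 72.1% and 52.8%, they overlapped.

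Within basal cells, 5 members had both PRT4165 plates below both vehicle plates, as had 18.2% of all genes. These were Col17a1, Itgb4, Lamb3, Dst and Plec, by the basal values given above, and for Dst the vehicle mean was 453 ± 18.0 CPM and the PRT4165 mean 293 ± 11.7 CPM (SD, n = 2). None passed the test: the log2 fold change was -0.85 (SE 0.46) for Col17a1, with the lowest unadjusted p of the members, 0.0989, by edgeR and an adjusted p of 0.899. It was -0.55 (SE 0.41) for Dst, -0.73 (SE 0.61) for Plec, -0.89 (SE 0.82) for Itgb4 and -0.93 (SE 0.86) for Lamb3. The basal keratins were likewise lower in the basal cells of both PRT4165 plates, with Krt14 at 2309 and 3222 CPM against 1755 and 1783 CPM and Krt5 at 670 and 543 against 444 and 369 CPM. The 4 other members overlapped between treatments, with Itga6 at 0.05 (SE 0.56), Itgb1 at -0.06 (SE 0.58), Itga3 at -0.60 (SE 1.19) and Lama3 at -0.31 (SE 0.87). In all, 8 of 9 members were below 0, with a median of -0.60 beside 0.02 for all genes, of which 49.2% were below 0. EdgeR called none of 11981 genes (0.0%), with 691 (5.77%) at an unadjusted p under 0.05, and 2 genes but no member with the replicate number as a block, while DESeq2 called 183 (1.53%) and limma 5 (0.0675%), none of them members. The test of whether the basal to suprabasal difference itself differed between treatments called no gene of 10866 (0.0%) and no member, with 393 genes (3.62%) and 0 members at an unadjusted p under 0.05. DESeq2 called 158 genes (1.45%) there and limma 0, again without a member, and the members ran from -2.58 (Itgb1, SE 2.15) to 2.66 (Itga3, SE 3.33).

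**Figure D5:**
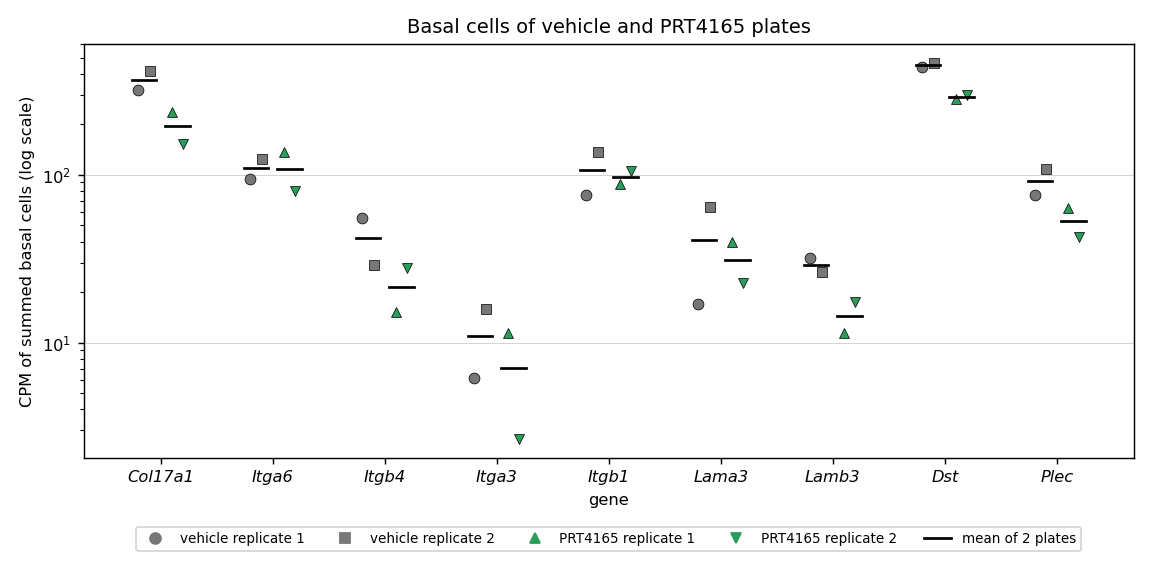
Level of each gene (CPM of the summed basal cells, log axis) on the vehicle (grey) and PRT4165 (green) plates, with 1 marker shape per plate and a bar at the mean of 2 plates. For Col17a1, Itgb4, Lamb3, Dst and Plec both green points lie below both grey points, and the remaining 4 genes overlap.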

How the data were processed

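Single tomato-positive keratinocytes of 4 plates were read from 1 table of all cells. Per the labels and the study's methods, the authors mapped reads to the mouse transcriptome (Ensembl 101, mm10/GRCm38) with Salmon 0.13.1 and deposited estimated counts per gene symbol and cell without scaling, of which 18.3% of the values above 0 were not whole. Estimated counts share reads between similar transcripts, and strandedness is not given in the sources used here.

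Cells with at least 1000 genes and at most 50% mitochondrial counts were kept, as in the study. Cells were sorted singly into wells and doublets were not searched for, and the highest Pearson correlation between any 2 cells was 0.942. Counts were summed per plate, or per plate and class, rounded, filtered with filterByExpr, scaled by TMM and tested two-sided with edgeR 4.0.16 (quasi-likelihood, R 4.3.3), with Benjamini-Hochberg adjustment over all genes and a threshold of 0.05. The class fit had plate as a block. DESeq2 1.42.0 and, chosen after seeing the data, limma 3.58.1 (trend, genes with a count in at least 10% of thinned cells) were alternatives. The members and all gene lists were chosen with earlier results of these data known. Besides the members, the text names Cd151, the class keratins, up to 3 genes per list by smallest p and the 5 genes most like the members; 1 further gene of the rule is not reported here. The edgeR fits of treatment over all cells and of class, and the limma fit of class, were run on simulated data, and the other fits were not. Alternatives were other scaling, filters, class limits and class genes, thinning, the replicate block and leaving out each plate. The study's methods describe independent experiments on several biological replicates but do not tie a plate to animals, so p-values measure the spread between plates, whatever its source. The replicate numbers stand in the labels as a batch tag and were taken as pairs, although the deviations of same-numbered plates had a correlation of only 0.0421 over 12033 genes. Coordinates are from GENCODE M21 and upstream sequences from RefSeq, both on GRCm38. The median depth of a cell was 141985 to 538754 counts on the 4 plates, which limits detection of low genes in single cells.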

Additional observations from a re-analysis of the deposited data

Results flagged for a closer look

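Itga3, the alpha subunit of integrin alpha3beta1, had a lower ratio of basal to suprabasal level on 1 plate than on the 3 others, by a test that rests on very few counts. The log2 ratio of its basal to its suprabasal CPM was 0.7331 on PRT4165 replicate 2, against 6.62 and 5.76 on vehicle replicates 1 and 2 and 6.37 on PRT4165 replicate 1. The gap below these 3 took 0.854 of the whole range, above Dixon's 95% limit for 4 values, which about 1 in 20 groups exceed by chance. The 3 high ratios rest on 1, 3 and 2 suprabasal counts from 1 cell each, at or under the floor of 3 counts, so their size is not known, while PRT4165 replicate 2 had 29 counts in 4 cells. With 1 CPM added to both classes, an alternative chosen after seeing the data, the ratios were 2.75, 3.71, 3.45 and 0.49, and the gap took 0.702 of the range, under that limit. No difference between plates is drawn from this ratio.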

How the results depend on the processing

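All 9 members were lower in suprabasal cells in every fit that could be made; Itga3 could not be fitted on thinned sums, and no edgeR setting called a member. The number of genes called between the classes was 45 in the fit reported, 1612 with DESeq2, 96 with no low-count filter, 122 with cells thinned to equal counts, 104 with no replicate block, 11 with the class limit at 0, 10 with Krt5 and Krt1 as class genes and 1286 with limma on means over cells, and ran from 2 to 14 without 1 plate at a time (2 and 6 when vehicle replicate 1 or 2 was left out, 6 and 14 when PRT4165 replicate 1 or 2 was). With Krt5 and Krt1 as class genes, vehicle replicate 2 had 3 suprabasal cells. A plate with fewer than 5 cells in a class was left out, so that fit lacked this plate as well. Between the treatments over all cells 0 genes were called in the fit reported, 174 with DESeq2 and 3 with limma. Within basal cells this was 0, 183 with DESeq2, 5 with limma, 1 with the stricter cell filter, 2 with the replicate block and 0 to 6 without 1 plate at a time (4 when vehicle replicate 2 was left out, 1 and 6 when PRT4165 replicate 1 or 2 was). The replicate block left the treatment over all cells at 0 calls and changed no call of a member. The interaction gave 158 with DESeq2 and 1 with no low-count filter, and 0 without any 1 plate.

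No member's treatment difference was called, and its sign often turned. Over all cells it turned to 0.053 for Itga3 and 0.13 for Dst with the stricter cell filter and to 0.29 for Lama3 with limma. Without 1 plate at a time it ran from -0.92 to 0.26 for Col17a1, -1.26 to 0.19 for Itgb4, -1.27 to 0.81 for Itga3, -1.01 to 0.71 for Itgb1, -1.32 to 1.26 for Lama3 and -0.27 to 0.081 for Dst. In basal cells it turned to -0.080 for Itga6, 0.066 for Itgb1 and 0.11 for Lama3 with thinned cells, to -0.15 for Itga6 with Krt5 and Krt1 as class genes, to 0.11 for Itga3 with the stricter filter, and to 0.19 for Itgb1 and 0.47 for Lama3 with limma. Without 1 plate it ran from -0.30 to 0.33 for Itga6, -1.90 to 0.20 for Itga3, -0.43 to 0.39 for Itgb1 and -0.98 to 0.91 for Lama3. The suprabasal share differed between treatments by -0.247 percentage points as reported, by 1.01 with the limit at 2, 4.15 with it at 0 and 7.40 with Krt5 and Krt1, and by -4.59 to 4.09 without 1 plate. The cause of these turns was not tested.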
